A study of Mus musculus with 4 samples.

Results

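Vesicle traffic between the endoplasmic reticulum (ER) and the Golgi apparatus needs soluble coat proteins and membrane receptors that hold the cargo. The genes described here are 43 members of these classes, all of which were found by gene symbol among the 49568 symbols of the table. They comprise 25 soluble coat and Arf genes (9 COPI, 11 COPII, 3 clathrin and 2 Arf genes), 17 membrane cargo receptor genes (8 Tmed, 2 Lman, 3 Kdelr and 3 Ergic genes and Surf4), and Mcfd2, a soluble partner of Lman1. The libraries held RNA of purified mouse migrasomes (2 libraries) and of mouse cytosol (2 libraries). Migrasomes grow as large vesicles on the retraction fibres that trail a migrating cell, and the title of the series names the transfer of mRNA by them. The labels give a sample type and a replicate number, and the sources used here do not give the cell type, the genotype, any treatment or the way in which either fraction was purified.

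COPII coats buds at ER exit sites, where the GTPase Sar1 recruits an inner layer of Sec23 and Sec24 and an outer cage of Sec13 and Sec31. COPI, recruited by Arf GTPases, coats Golgi vesicles, many of which return proteins to the ER, and clathrin coats vesicles at the trans-Golgi, endosomes and the plasma membrane. All these coat proteins are made on free cytosolic ribosomes. The receptors span the membrane and enter it at the ER while they are being made: they bind cargo in the lumen and coat subunits in the cytosol, and cycle between the ER and the Golgi.

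The migrasome libraries held 5228713 and 5171092 reads assigned to genes and the cytosol libraries 7529136 and 8608369. Values are the deposited normalised read counts, in which 1 read is worth 1.41 and 1.32 in the migrasome libraries and 0.776 and 0.686 in the cytosol libraries. Each difference is taken on log2(value + 1), cytosol subtracted from migrasome, with its standard error (SE) from limma, and a gene was called where the Benjamini-Hochberg adjusted p was below 0.05 over all 10860 tested genes. Genes are called more or less abundant than one another only where this also held per kilobase of transcript. All 43 members had a value above 10 in each of the 4 libraries, and all were tested. Separate cultures are not stated by the labels, and p-values therefore reflect the spread of these 4 samples alone, possibly a technical one. Values are relative to the RNA of each library, so fewer vesicles or cells that hold a transcript and less of it in each cannot be told apart.

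The 2 fractions also differed in RNAs outside the secretory pathway. The summed value of 8 mitochondrially encoded mRNAs was 65835 to 136054 in migrasome and 17551 to 28477 in cytosol. Of these, 8 of 8 were called higher. The shares over all tested genes were 8.68% higher and 17.7% lower. Most of the sum was mt-Co1, with 47373 and 111818 in migrasome and 13406.5 and 24463 in cytosol. The lowest, mt-Co2, had 12.7 and 14.5 in migrasome and 0.776 and 4.80 in cytosol. The summed value of 6 nuclear RNAs was 12073 to 16908 in migrasome and 77508 to 80588 in cytosol. Of these, 1 of 4 tested (Rn7sk) was called lower, and Xist was at 0 in every library. Without Rn7sk the nuclear sums were 5426 and 4175 in migrasome and 11363 and 5944 in cytosol. Defining genes of epithelial, blood and endothelial cells stayed at or below 6.86 in every library. The fibroblast list was expressed in both fractions (8 tested, 1 called higher and 6 lower), although Thy1 reached at most 23.7. Its summed value was 31752 to 38134 in migrasome and 30765 to 40032 in cytosol, similar sums of genes that went opposite ways. Vim, the largest part, had 33076 and 26052 in migrasome and 16385 and 14221 in cytosol. Col1a2 had 1715 and 2287 in migrasome and 10736 and 7740 in cytosol. A neuronal list of 3 genes was low, with sums of 52.3 to 60.5 in migrasome and 23.3 to 27.4 in cytosol and 1 of 2 tested called higher. The part of the mitochondrial and nuclear RNA in the differences below was not tested.

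Of the 25 coat genes, 8 were higher in migrasome, none was lower and 17 did not pass the test. Of the 17 receptor genes, 16 were lower in migrasome, none was higher and 1 (Ergic2) did not pass. Among all tested genes 8.68% were called higher and 17.7% lower, which is 943 and 1919 genes. The median log2 difference was 0.48 for the coat genes, with a range of -0.24 (Sec24b) to 1.13 (Copa), and -1.67 for the receptors, with a range of -2.15 (Tmed5) to -0.54 (Ergic2). All tested genes had a median of -0.0043 and a middle 50% of -0.65 to 0.43. Mcfd2, the soluble partner, was called lower, with a difference of -1.83.

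In the single libraries, both migrasome libraries lay above both cytosol libraries for 19 of the 25 coat genes, against 33.3% of all tested genes, and the groups overlapped for Copb1, Copz1, Sar1b, Sec16a, Sec24b and Sec24c. Both migrasome libraries lay below both cytosol libraries for all 17 receptors and Mcfd2, against 36.3% of all tested genes. At an unadjusted limma p below 0.05, 13 coat genes were higher and 0 lower, and 17 receptors were lower and 0 higher, against 17.4% of all tested genes higher and 24.2% lower. edgeR and DESeq2 on the recovered reads each called 8 coat genes higher and 0 lower, and 16 receptors lower and 0 higher. Over all genes edgeR called 9.86% higher and 19% lower, and DESeq2 10.5% and 14.7%.

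**Figure D1:**
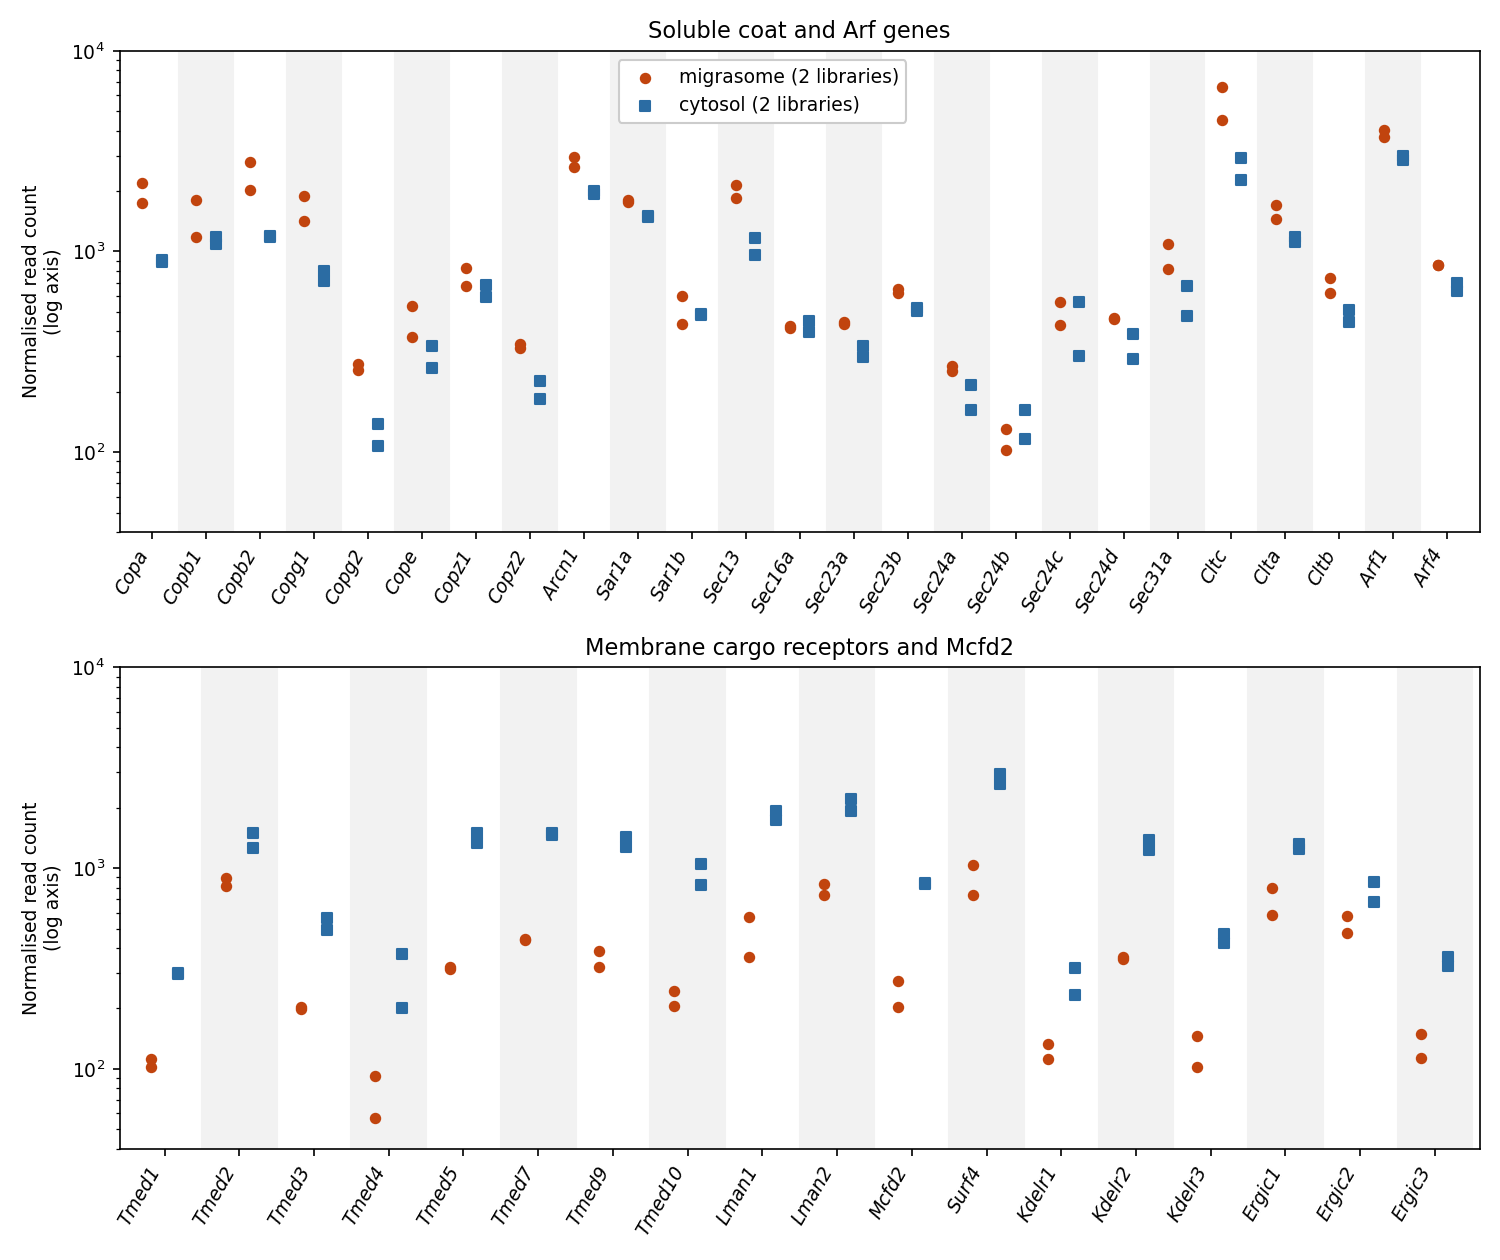
Normalised read count (log axis) of each coat gene (upper panel) and of each receptor and Mcfd2 (lower panel), with 2 migrasome libraries as circles and 2 cytosol libraries as squares. Circles lie above squares for 19 of 25 coat genes and below them for all 17 receptors and Mcfd2.

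The count of coat genes depended on single libraries more than that of the receptors. Without migrasome replicate 2, 13 coat genes were called higher, and without cytosol replicate 2 only 3 (Copa, Copg1 and Sec13), while the calls over all genes moved to 2085 and 231 higher. Receptors called lower numbered 13 to 17 when each library was left out in turn. Such a fit leaves 1 library in a group, which is assumed to vary like the other group. Scaling each library to the same total shifted the median of all genes by -0.27 and gave 322 genes higher and 2522 lower, with 6 coat genes higher and 17 receptors lower. Quantile normalization gave 1194 higher and 1403 lower, with 6 coat genes higher and 16 receptors lower.

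**Figure D2:**
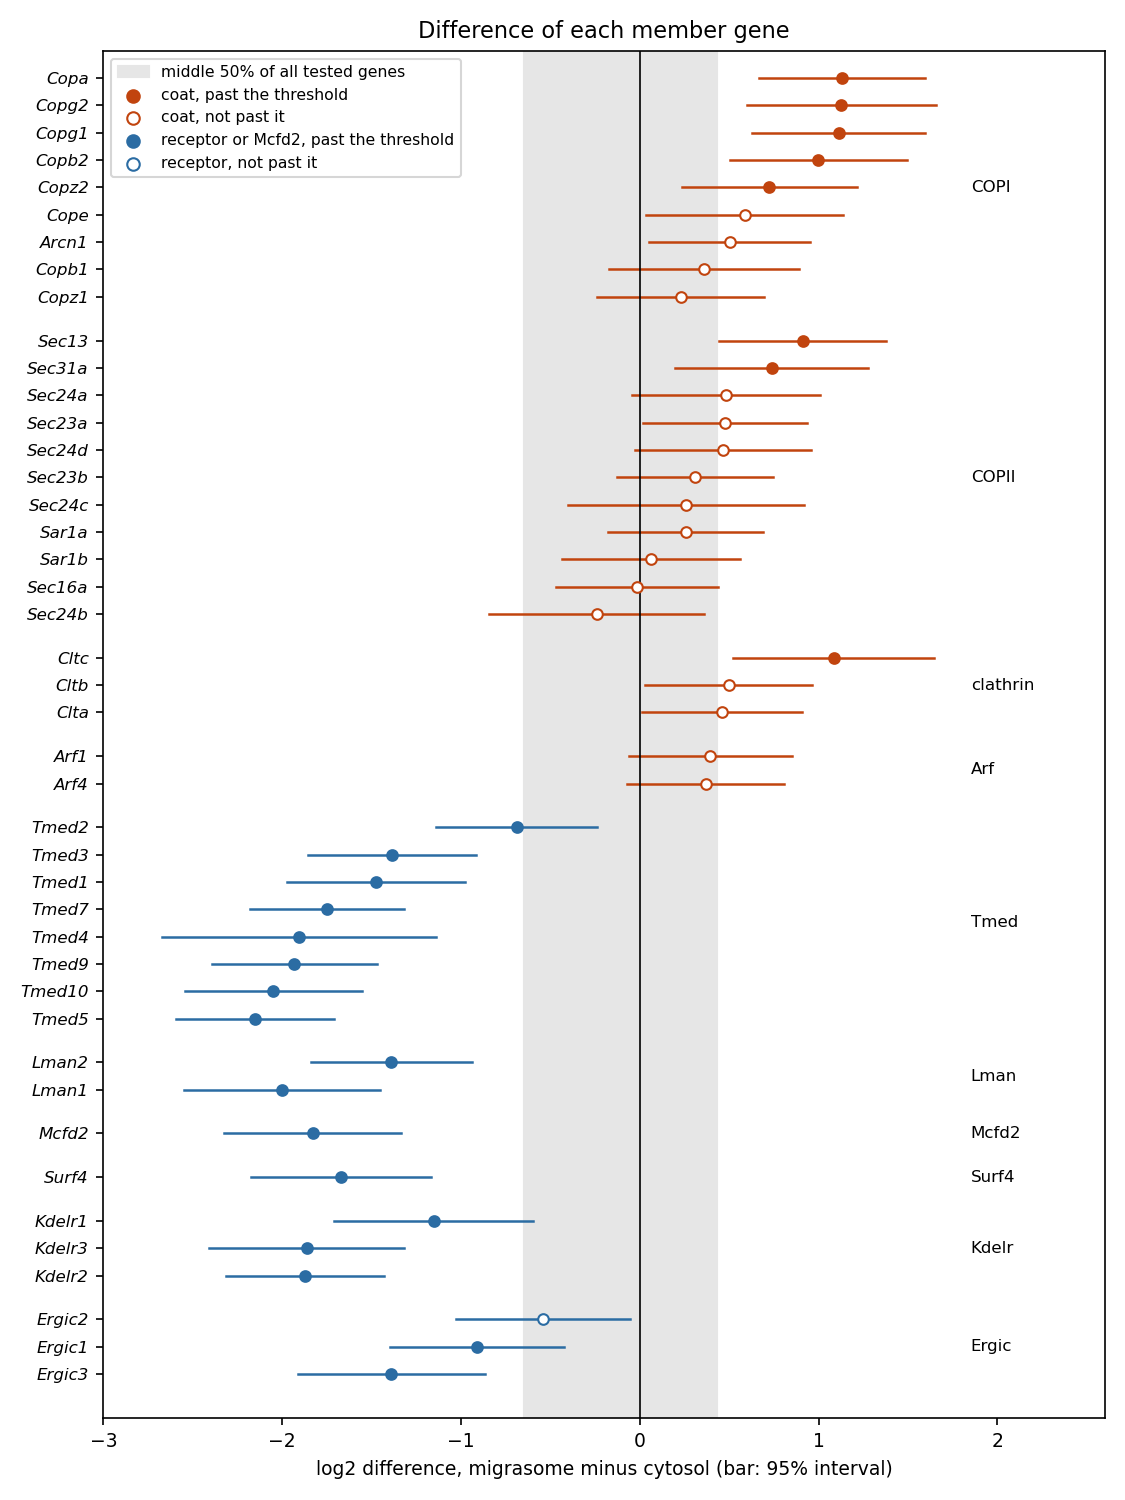
Log2 difference, migrasome minus cytosol, of each of the 43 genes by family, with the 95% interval from limma (bars), called genes as filled points and the middle 50% of all tested genes as the grey band. The coat genes run from -0.24 to 1.13 and the receptors from -2.15 to -0.54.

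The 9 COPI genes encode the subunits of coatomer, in which alpha, beta-prime and epsilon form the outer part and beta, gamma, delta and zeta the inner part. Of the 9 genes, 5 were called higher in migrasome, against 8.68% of all tested genes: Copa, Copb2, Copg1, Copg2 and Copz2. The family median was 0.72, and every member had a positive difference, although that of Copz1 was -0.045 when the libraries were scaled to the same total. The summed value of the family was 13468 and 10781 in migrasome and 7408 and 7017 in cytosol.

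Copa, the alpha subunit that binds dilysine signals on returning membrane proteins, lies on chromosome 1 from 172082529 to 172122330 (plus strand, GRCm38, GENCODE M21, as are all positions given). It had 2203 and 1742 normalised reads in migrasome, against 886 and 902 in cytosol. Both migrasome libraries were high, and the log2 difference was 1.13 (SE 0.21, limma adjusted p = 0.0040). Copb2, the beta-prime subunit, which binds dilysine signals as well, is on chromosome 9 from 98563721 to 98588382 (plus strand) and had 2802 and 2015 in migrasome and 1194 and 1184 in cytosol (difference 1.00, SE 0.22, limma adjusted p = 0.0105). The cytosol libraries of both genes were close together and the migrasome libraries were spread more widely. Epsilon, the remaining subunit of the outer part, is encoded by Cope, which had 536 and 375 in migrasome and 338 and 263 in cytosol, without overlap of the groups. Its difference of 0.59 did not pass (limma adjusted p = 0.10), and it passed when migrasome replicate 2 was left out and with the replicate number as a block (limma adjusted p = 0.025).

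Gamma-coatomer has paralogous genes, Copg1 and Copg2, and both were higher. Copg1, the more abundant, lies on chromosome 6 from 87887814 to 87913595 (plus strand) and had 1881 and 1413 in migrasome and 795 and 715 in cytosol (difference 1.11, SE 0.22, limma adjusted p = 0.0055). Copg2, on chromosome 6 from 30747554 to 30896794 (minus strand), had 276 and 258 in migrasome and 138 and 107 in cytosol (difference 1.13, SE 0.24, limma adjusted p = 0.0080). The paralogs thus differed between the fractions by nearly the same amount at very different levels. Copg2 overlaps Mest on the opposite strand, and the sources used here do not give the strand setting of the counts. In all, 21 members overlap another annotated gene, among them Tmed1 (Dnm2), Tmed5 (Mtf2) and Ergic1 (Dusp1). The Copg2 call was lost without cytosol replicate 2 (lowest difference over all settings 0.86), whereas the calls of Copa and Copg1 were kept in all 13 alternative settings.

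Zeta-coatomer has paralogs too, and 1 of them passed. Copz2 had 330 and 346 in migrasome and 185 and 226 in cytosol and was called higher (difference 0.72, SE 0.22, limma adjusted p = 0.037). Copz1, the more abundant paralog, had 675 and 823 in migrasome and 683 and 592 in cytosol, so its groups overlapped, with a difference of 0.23 (limma adjusted p = 0.43). Each of them holds a microRNA gene within its span, Mir152 in Copz2 and Mir148b in Copz1. The Copz2 call was lost in 5 of the 13 alternative settings, among them the fits without either cytosol library. Arcn1, the delta subunit, had 2967 and 2633 in migrasome and 2005 and 1943 in cytosol, without overlap but not past the test (difference 0.50, limma adjusted p = 0.089). Copb1, the beta subunit, had 1799 and 1175 in migrasome and 1185 and 1085 in cytosol, where the lower migrasome library fell between the cytosol libraries (difference 0.36, limma adjusted p = 0.28).

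Of the 11 COPII genes, Sec13 and Sec31a, which encode the outer cage, were called higher, none was lower, and 9 did not pass. The shares over all tested genes were 8.68% higher and 17.7% lower. The family median was 0.31, below that of the COPI genes, although the difference between the families was not tested. The summed value was 8552 and 7615 in migrasome and 6171 and 5773 in cytosol. Sec13, whose protein is also a subunit of the nuclear pore, lies on chromosome 6 from 113728062 to 113740743 (minus strand) and had 2138 and 1853 in migrasome and 957 and 1171 in cytosol (difference 0.91, SE 0.21, limma adjusted p = 0.012). Sec31a, on chromosome 5 from 100361649 to 100416234 (minus strand), had 1085 and 819 in migrasome and 671 and 475 in cytosol (difference 0.74, SE 0.24, limma adjusted p = 0.048). Both cage genes had migrasome libraries above the cytosol libraries, as 33.3% of all tested genes did. The Sec31a call was lost in 6 of the 13 alternative settings, and that of Sec13 without cytosol replicate 1.

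Of the inner COPII coat genes, Sec23a, Sec23b and Sec24a to Sec24d, 0 passed by limma, edgeR or DESeq2, and 1 (Sec23a) was higher at an unadjusted limma p below 0.05. Sec23a had 447 and 437 in migrasome and 337 and 298 in cytosol (difference 0.48), and Sec23b, its more abundant paralog, had 648 and 624 in migrasome and 506 and 520 in cytosol (difference 0.31). Sec24, the subunit that binds cargo and receptor tails, has 4 paralogs in the mouse. Sec24a had 255 and 270 in migrasome and 217 and 162 in cytosol (0.48), and Sec24d had 468 and 461 in migrasome and 386 and 293 in cytosol (0.46). Sec24c varied widely between the cytosol libraries, with 563 and 428 in migrasome and 558 and 302 in cytosol, and its difference of 0.26 was -0.18 without cytosol replicate 2. Sec24b was the lowest of the paralogs, with 130 and 103 in migrasome and 161 and 116 in cytosol, and had the most negative difference of the coat genes, -0.24 (SE 0.27, limma adjusted p = 0.52).

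The genes that start a COPII bud were also near the middle of all genes. Sar1a, a GTPase that opens assembly of the coat, had 1797 and 1773 in migrasome and 1489 and 1500 in cytosol (difference 0.26, but -0.017 with scaling to the same total and -0.059 with quantile normalization). Its paralog Sar1b had 597 and 433 in migrasome and 489 and 484 in cytosol, with overlapping groups (difference 0.064, limma adjusted p = 0.84). Sec16a, the scaffold of ER exit sites, had 424 and 416 in migrasome and 399 and 453 in cytosol (difference -0.016, limma adjusted p = 0.96). The 95% interval of the Sec16a difference was -0.47 to 0.44, so a change of the size seen for Copa lies outside it.

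Clathrin is built from a heavy chain and light chains. Cltc, the heavy chain gene on chromosome 11 from 86694351 to 86757565 (minus strand), had the most normalised reads of the 43 genes in migrasome, a count that also follows its long transcript, with 6586 and 4526 in migrasome and 2924 and 2267 in cytosol (difference 1.08, SE 0.25, limma adjusted p = 0.013). Clta, a light chain gene, had 1707 and 1454 in migrasome and 1112 and 1177 in cytosol (difference 0.46, limma adjusted p = 0.11). Cltb, the other light chain gene, had 734 and 619 in migrasome and 443 and 514 in cytosol (difference 0.50, limma adjusted p = 0.10). All 3 had migrasome above cytosol without overlap, against 33.3% of all tested genes, and only the heavy chain passed. The Cltc call was lost without cytosol replicate 2, with quantile normalization (the lowest difference, 0.57) and without a minimum value.

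Arf1, the GTPase that recruits COPI and several clathrin adaptors to the Golgi, had 4006 and 3701 in migrasome and 2858 and 3003 in cytosol. The groups did not overlap, but the difference of 0.39 did not pass (limma adjusted p = 0.17) and was -0.10 with quantile normalization. Arf4, a Golgi Arf related to it, had 858 and 859 in migrasome and 634 and 698 in cytosol (difference 0.37, limma adjusted p = 0.18). It overlaps Arf4os and Pde12 on the opposite strand.

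The Tmed genes encode the p24 family, small membrane proteins with a luminal cargo domain and a short cytosolic tail that binds COPI and COPII subunits. All 8 were lower in migrasome, against 17.7% of all tested genes, with a family median of -1.83. Their summed value was 2522 and 2618 in migrasome and 8001 and 7352 in cytosol, which is 2.99-fold higher in cytosol by the means. The differences ran from -2.15 for Tmed5 to -0.69 for Tmed2.

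Tmed5, of the gamma subfamily, lies on chromosome 5 from 108106366 to 108132620 (minus strand) and had 321 and 313 in migrasome against 1498 and 1337 in cytosol. This was the largest decrease of the 43 genes (difference -2.15, SE 0.20, limma adjusted p = 0.00042). Tmed10, the single member of the delta subfamily and a receptor for proteins with a lipid anchor, is on chromosome 12 from 85340614 to 85374847 (minus strand) and had 205 and 245 in migrasome and 1053 and 822 in cytosol (difference -2.05, SE 0.22, limma adjusted p = 0.00054). Tmed9, of the alpha subfamily, had 386 and 321 in migrasome and 1421 and 1276 in cytosol (difference -1.93, SE 0.21, limma adjusted p = 0.00054). In each of these genes both migrasome libraries lay far below either cytosol library. Tmed4, also of the alpha subfamily, had 56.6 and 92.1 in migrasome and 201 and 372 in cytosol, the lowest level of the receptors per kilobase of transcript (37.1 ± 12.6 in migrasome and 143 ± 60.3 in cytosol, SD, n = 2). Its difference had the widest error (-1.91, SE 0.34). Tmed7, another gamma member, had 437 and 442 in migrasome and 1467 and 1497 in cytosol (difference -1.75, SE 0.19), and it overlaps Ticam2 on the same strand.

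The other gamma genes were lower as well. Tmed1 had 102 and 112 in migrasome and 302 and 296 in cytosol (difference -1.48), and Tmed3 had 198 and 204 in migrasome and 566 and 490 in cytosol (difference -1.39). Both were called in every alternative setting. Tmed2, the single beta member, had the smallest decrease of the family, with 816 and 888 in migrasome and 1493 and 1263 in cytosol, on chromosome 5 from 124540695 to 124550506 (plus strand). Its difference of -0.69 (SE 0.20, limma adjusted p = 0.033) was called here but not without either cytosol library, without a minimum value or without a variance trend. The 95% interval, -1.14 to -0.24, did not reach the estimate of any other Tmed gene. Per kilobase of transcript, Tmed2 had the highest level of the family in migrasome (411 ± 24.7, SD, n = 2), followed by Tmed7 (326 ± 2.73). In cytosol Tmed7 came first (1099 ± 15.5), then Tmed9 (950 ± 72.4) and Tmed2 (664 ± 78.1). In both fractions the levels of the first and the following gene lay further apart than their SDs.

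The lectin receptors Lman1 and Lman2 bind mannose-rich sugars on glycoproteins that leave the ER. Lman1, also known as ERGIC-53, on chromosome 18 from 65980738 to 66022580 (minus strand), had 361 and 570 in migrasome and 1729 and 1914 in cytosol (difference -2.0, SE 0.25, limma adjusted p = 0.00063). Mcfd2, which has no membrane span and works as a complex with Lman1 in the export of blood clotting factors in humans, had 202 and 272 in migrasome and 835 and 839 in cytosol (difference -1.83, SE 0.22, limma adjusted p = 0.00059). The partners thus had similar differences, although Mcfd2 encodes a soluble protein. Its product enters the ER lumen through a signal peptide, unlike the soluble coat proteins. Whether this has a part in the Mcfd2 difference was not tested. Lman2, also called VIP36, had 735 and 837 in migrasome and 1915 and 2209 in cytosol (difference -1.39, SE 0.20, limma adjusted p = 0.0012). The 95% intervals of Lman1 (-2.55 to -1.45) and Lman2 (-1.84 to -0.94) overlapped, and the difference between these genes was not tested.

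Surf4, a multispanning receptor for many soluble secreted proteins, lies on chromosome 2 from 26920040 to 26933928 (minus strand). It had the most normalised reads of the receptors in cytosol, although per kilobase of transcript (847 ± 66.9 in cytosol) it came after Tmed7 and Tmed9. Surf4 stood at 734 and 1033 in migrasome and 2624 and 2934 in cytosol (difference -1.67, SE 0.23, limma adjusted p = 0.00087). Both migrasome libraries were low, and the groups lay far apart. Surf4 overlaps Surf2 on the opposite strand.

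The KDEL receptors return escaped ER proteins from the Golgi, and all 3 genes were lower in migrasome, against 17.7% of all tested genes. Kdelr2, the most abundant, on chromosome 5 from 143403838 to 143421901 (plus strand), had 352 and 359 in migrasome and 1379 and 1235 in cytosol (difference -1.87, SE 0.20, limma adjusted p = 0.00054). Kdelr3 had 102 and 146 in migrasome and 470 and 425 in cytosol (difference -1.86, SE 0.24). Kdelr1, at 133 and 112 in migrasome and 320 and 233 in cytosol, had the smallest decrease (difference -1.15, SE 0.25, limma adjusted p = 0.0093). Leaving out cytosol replicate 1 ended this call. Kdelr3 overlaps Ddx17, and Kdelr1 overlaps Grin2d, each on the opposite strand.

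The Ergic genes encode membrane proteins that cycle between the ER and the intermediate compartment, and their yeast relatives form a receptor complex. The family median was -0.91, the smallest decrease among the medians of the receptor families. Ergic3 had 113 and 149 in migrasome and 325 and 359 in cytosol (difference -1.39, SE 0.24, limma adjusted p = 0.0026). Ergic1 had 584 and 796 in migrasome and 1245 and 1320 in cytosol (difference -0.91, SE 0.22, limma adjusted p = 0.015), a call lost without either cytosol library and without a minimum value. Ergic2 had 475 and 575 in migrasome and 677 and 857 in cytosol, so that the groups were close but did not overlap (difference -0.54, SE 0.22, limma adjusted p = 0.090). It passed when migrasome replicate 2 was left out, with scaling to the same total and with the replicate number as a block.

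The lowest coat gene (Sec24b, -0.24) and the highest receptor (Ergic2, -0.54) were not far apart. Without migrasome replicate 1 the same genes were at -0.41 and -0.41, and without cytosol replicate 2 at -0.48 and -0.37, so that the classes met or overlapped by these genes. In the other 11 alternative settings the classes did not overlap. All 17 receptors had a negative difference in every setting, and the number of coat genes with a positive one was 19 to 24.

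Sums over the classes, of normalised reads and not per length, give a balance within each library that no scaling factor changes. The 25 coat genes summed to 35911 and 29555 in migrasome and to 21550 and 20449 in cytosol, which is 0.486% and 0.434% of the migrasome totals and 0.369% and 0.346% of the cytosol totals. The 17 receptors summed to 6111 and 7195 in migrasome and to 18686 and 18838 in cytosol, which is 0.0826% and 0.106% of the migrasome totals and 0.320% and 0.319% of the cytosol totals. Receptor mRNA over coat mRNA was 0.170 and 0.243 in migrasome and 0.867 and 0.921 in cytosol, or 0.207 ± 0.0518 and 0.894 ± 0.0383 (SD, n = 2 each), a 4.32-fold higher ratio in cytosol. The ratio of the sums differed by -2.13 on the log2 scale, and by -2.06 without Cltc, the coat gene with the most normalised reads in migrasome. With 2 libraries in each group the smallest p of a two-sided exact permutation test is 0.33, so no test of this ratio is given.

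Ratios between receptors and the coat that carries them showed the same order. Tmed over COPI was 0.187 and 0.243 in migrasome and 1.08 and 1.05 in cytosol. Kdelr over COPI was 0.0436 and 0.0573 in migrasome and 0.293 and 0.270 in cytosol. Lman over COPII was 0.128 and 0.185 in migrasome and 0.591 and 0.714 in cytosol. Each ratio was lower in both migrasome libraries than in either cytosol library.

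**Figure D3:**
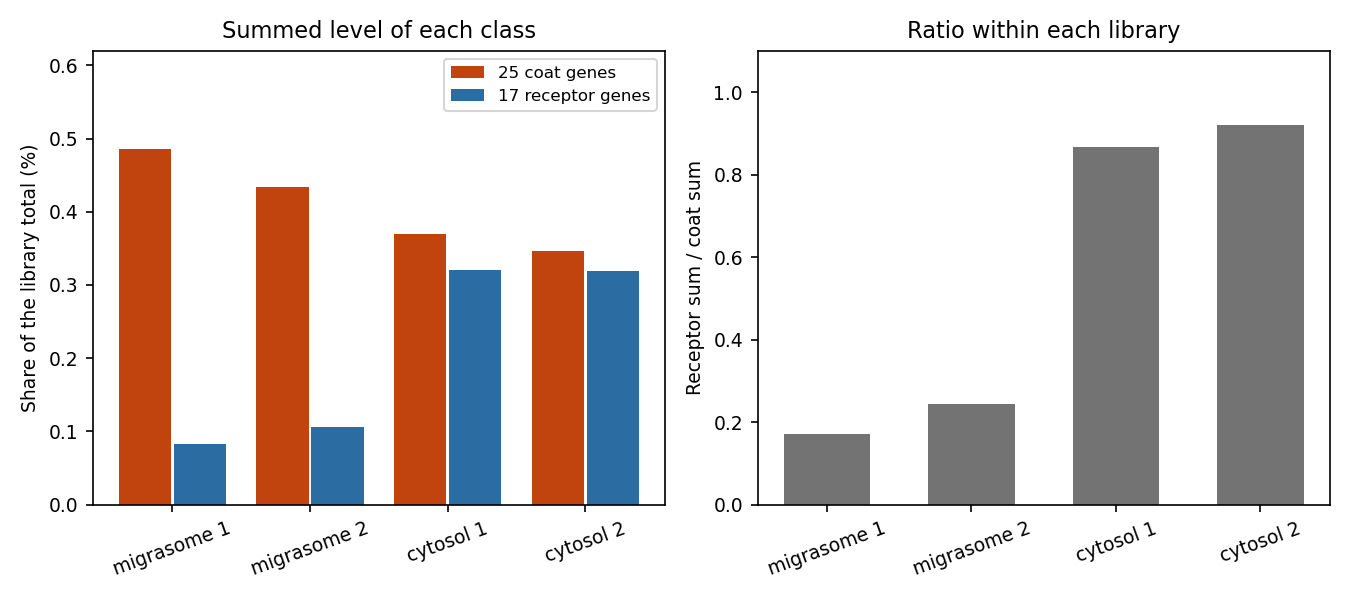
Left, summed normalised reads of the 25 coat genes and of the 17 receptor genes as a percentage of each library's total, and right, the ratio of the sums in each library. The ratio was 0.170 and 0.243 in migrasome and 0.867 and 0.921 in cytosol.

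Several coat subunits and the KDEL receptor are made from paralogous genes, and the share of a paralog within its family is likewise independent of scaling. Within the Kdelr family, Kdelr1 made up 22.7% and 18.1% of the family in migrasome and 14.7% and 12.3% in cytosol, while Kdelr2 made up 60% and 58.2% in migrasome and 63.6% and 65.3% in cytosol. Among the coats, Sec24b made up 9.19% and 8.14% of the Sec24 genes in migrasome and 12.2% and 13.3% in cytosol. Copz2 held 32.8% and 29.6% of the zeta pair in migrasome and 21.3% and 27.6% in cytosol. Sec23a held 40.8% and 41.2% of its pair in migrasome and 40.02% and 36.5% in cytosol, a shift of 2.77 points that was 0.991 without cytosol replicate 2. The share of Copz1, the other zeta gene, differed by -6.78 points, and by -3.62 without cytosol replicate 1. These shares did not overlap between the groups. With 2 libraries in each, an exact permutation test cannot give a two-sided p below 0.33. Separated shares alone therefore do not establish a shift. Those of Copg2 (14.1% ± 1.87 in migrasome and 13.9% ± 1.26 in cytosol) and Cltb (29.96% ± 0.161 in migrasome and 29.4% ± 1.35 in cytosol, SD, n = 2) overlapped, as did those of the Sar1 pair, Sec24a, Sec24c, Sec24d and Kdelr3. The longest identical coding stretch between any pair of these paralogs was 30 bases (Copg1 and Copg2), and 26 bases for Kdelr1 and Kdelr2. The sources used here do not say how reads that match several genes were counted.

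**Figure D4:**
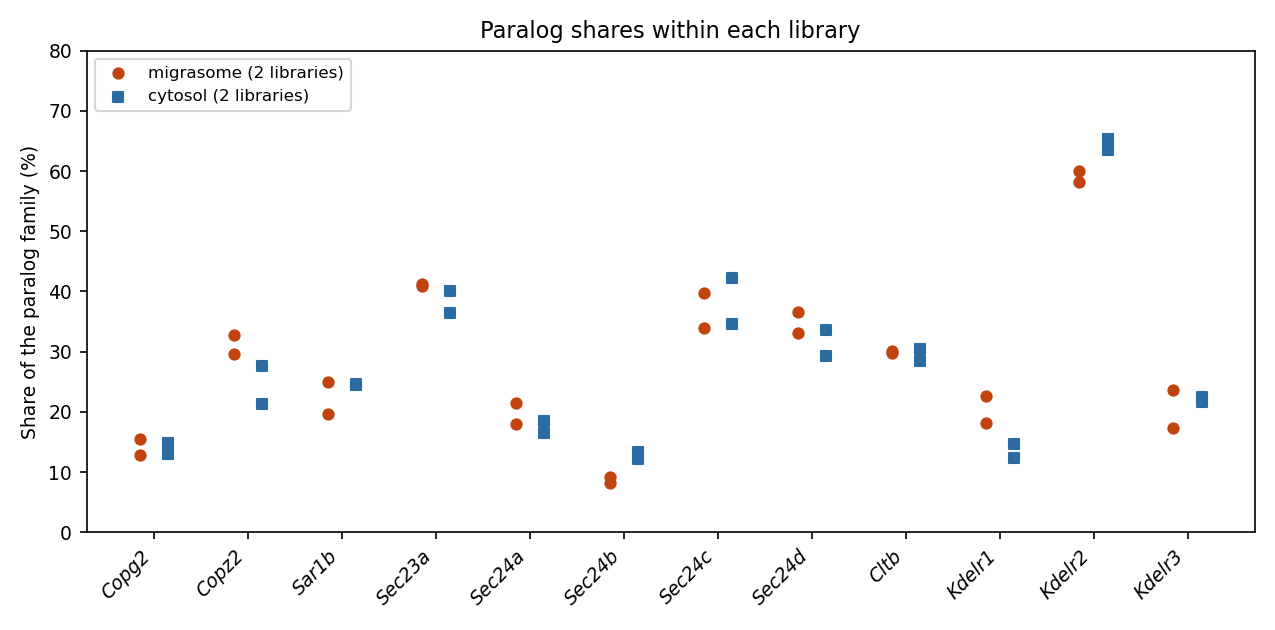
Share of a paralog (%) in the summed normalised reads of its family, with 2 migrasome libraries as circles and 2 cytosol libraries as squares. The groups lie apart for Copz2, Sec23a, Sec24b, Kdelr1 and Kdelr2, and overlap for the others.

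A membrane span is written in the coding sequence as a run of codons for hydrophobic residues, and codons with T at the second position all encode such residues (Phe, Leu, Ile, Met and Val). For each gene the most hydrophobic window of 19 codons (57 bases) was found by mean Kyte-Doolittle hydropathy in the coding sequence of GENCODE M21 (GRCm38). The windows of 5 receptors and 3 coat genes are shown to compare a receptor with a coat at the level of the mRNA; they run 5′ to 3′ in the sense of the gene, and capitals mark T at the second codon position.
Lman2 (chromosome 13): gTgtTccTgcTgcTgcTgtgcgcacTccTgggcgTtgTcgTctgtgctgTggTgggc
Ergic1 (chromosome 17): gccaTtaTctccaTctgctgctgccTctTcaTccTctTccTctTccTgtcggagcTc
Surf4 (chromosome 2): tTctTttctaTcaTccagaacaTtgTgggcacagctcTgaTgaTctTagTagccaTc
Kdelr2 (chromosome 5): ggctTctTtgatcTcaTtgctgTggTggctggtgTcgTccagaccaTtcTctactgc
Tmed10 (chromosome 12): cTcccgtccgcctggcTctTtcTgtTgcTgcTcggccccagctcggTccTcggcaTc
Sec24a (chromosome 11): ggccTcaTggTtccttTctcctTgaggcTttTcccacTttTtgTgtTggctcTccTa
Cltc (chromosome 11): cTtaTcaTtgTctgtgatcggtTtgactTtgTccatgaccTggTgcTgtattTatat
Copa (chromosome 1): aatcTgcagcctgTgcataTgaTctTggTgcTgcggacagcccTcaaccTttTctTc

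The windows start at codon 325 in Lman2, 26 in Ergic1, 179 in Surf4, 174 in Kdelr2 and 14 in Tmed10. Counting from the start codon, that of Tmed10 falls in the signal peptide region rather than the span near its end. T at the second position occurred in 13 of 19 codons in Lman2 and in 10 in Tmed10, and also in 13 in Sec24a and in 11 each in Cltc and Copa. Mean hydropathy of the windows was 3.08 in Lman2, 2.61 in Ergic1, 2.14 in Surf4, 1.86 in Kdelr2 and 1.72 in Tmed10, against 2.01 in Sec24a, 1.27 in Cltc and 1.09 in Copa. Sec24a thus lay above Kdelr2 and Tmed10. Over the members, the maximum ran from 1.66 to 3.08 in the receptors (median 2.01) and from 0.41 to 2.01 in the coat genes (median 1.24). A mean of at least 1.6, a usual mark of a span, was reached by 17 of 17 receptors, by Mcfd2 (1.86, at codon 6 from the start) and by 3 of 25 coat genes, Copb1, Sec24a and Sec24d. The windows of Tmed2 and Tmed4 also lay near the start, from codons 7 and 9, like that of Tmed10. For these Tmed genes the maximum may therefore not measure the membrane span. The encoded receptors had 201 to 517 residues (median 227) and the coat proteins 177 to 2377 (median 767).

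The same measure was set beside the differences of all 9975 tested genes with a coding sequence. Of the 1698 genes at 2.0 or above, 57.3% were called lower in migrasome and 1.88% higher, with a median difference of -1.15. Of the 1357 genes from 1.6 to 2.0, 22.1% were called lower (median -0.088), and of the 4055 below 1.2, 6.46% were (median 0.13). All 10 receptors at 2.0 or above were called lower (median -1.43), as were 6 of the 7 from 1.6 to 2.0 (median -1.91). Sec24a, the one coat gene at 2.0 or above, was not (difference 0.48), nor were Copb1 and Sec24d. Within the classes, Spearman's rho between the maximum and the difference was 0.32 over the 17 receptors and -0.22 over the 25 coat genes. These are correlations across genes that share the same 4 libraries, and genes are not independent replicates.

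**Figure D5:**
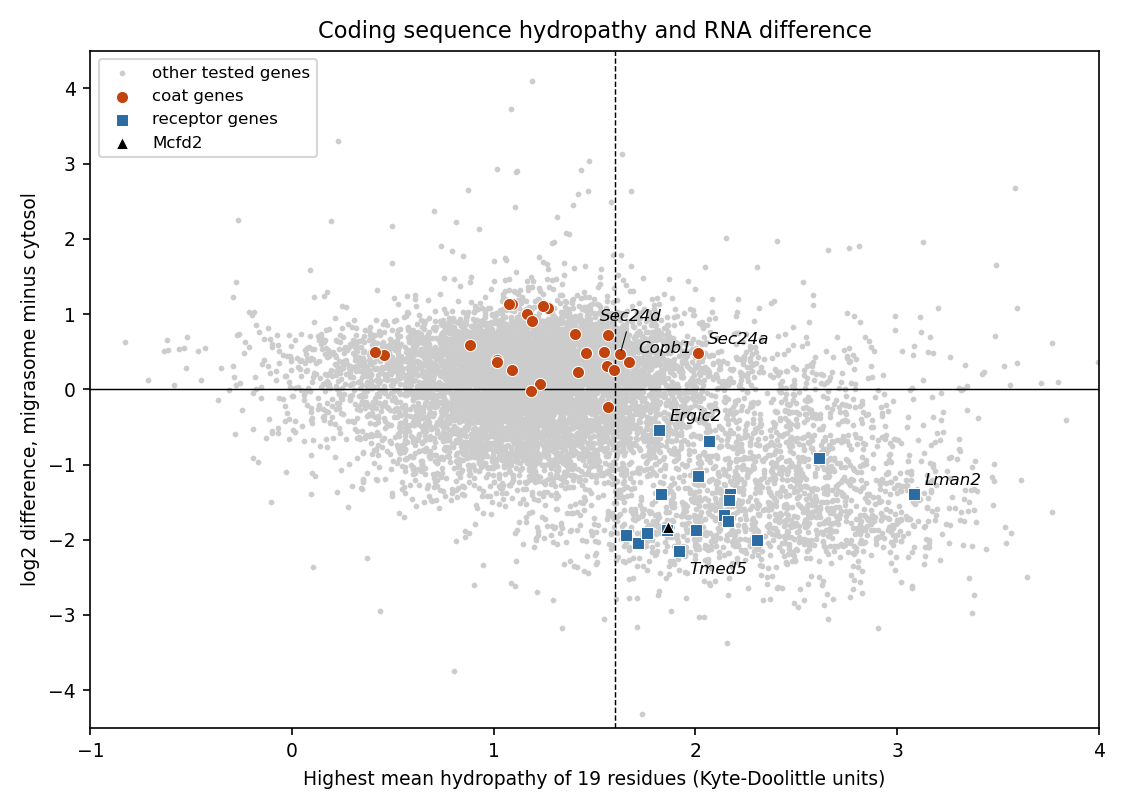
Log2 difference, migrasome minus cytosol, against the highest mean hydropathy of 19 residues (Kyte-Doolittle units) for the 9975 tested coding genes, with coat genes as circles, receptors as squares and Mcfd2 as a triangle; the dashed line is at 1.6. All 17 receptors lie to the right of the line and below 0, and 3 coat genes lie to its right and above 0.

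Membrane proteins that return to the ER can carry a dilysine signal (KKXX), a pair of lysines followed by the last 2 residues, which the products of Copa and Copb2 bind. It ends 4 receptors, Lman1, Surf4, Tmed4 and Tmed9, and no coat gene does. The last 30 coding bases before the stop codon of 3 of them are shown (GENCODE M21, GRCm38), with the lysine codons in capitals.
Surf4 (chromosome 2): gtgtccatggatgagaagAAGAAAgagtgg
Tmed4 (chromosome 11): aagagcttctttgaggccAAGAAGctggtg
Tmed9 (chromosome 13): aagagcttttttgaagccAAGAAGttggtg
The alpha Tmed genes share this tail closely. Differences of the 4 genes were -2.0, -1.67, -1.91 and -1.93 in the order named above, within the range of the other receptors. Among all tested coding genes 120 (1.2%) ended in the signal, of which 35 (29.2%) were called lower and 7 higher. Of all tested genes 17.7% were called lower and 8.68% higher.

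Other genes of the pathway were described from lists of soluble and membrane proteins. Of 62 tested soluble genes, 6 were higher and 1 lower, and of 30 tested membrane genes, 1 was higher and 22 lower, against 8.68% and 17.7% of all tested genes. The 1 higher in the membrane lists was Tmed8, in which no window reached a mean hydropathy of 1.6. The soluble counts were small and moved between 0 and 15 higher when a library was left out (0 without cytosol replicate 2 and 15 without migrasome replicate 2). The count of membrane genes that were lower was 13 without cytosol replicate 2 and 14 without cytosol replicate 1.

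Adaptors, which link clathrin to cargo tails, had 4 of 19 tested subunit genes higher and none lower, with a median of 0.41. The shares over all tested genes were 8.68% higher and 17.7% lower. Ap2b1, the large beta subunit of the plasma membrane adaptor, had 2485 and 2254 in migrasome and 1197 and 1219 in cytosol (difference 0.97, limma adjusted p = 0.0068). Ap2a2, the alpha subunit of the same complex, had 4585 and 5052 in migrasome and 2717 and 3306 in cytosol (difference 0.68). Ap3b1 (0.92) and Ap3d1 (0.75), of the endosomal adaptor AP-3, were also higher; Ap3d1 was chosen after its value was seen. Of 10 other Arf and Arf-like genes 0 passed by limma, and 0 at an unadjusted p below 0.05. After adjustment 0 passed by edgeR and by DESeq2 as well, although DESeq2 had 1 higher at an unadjusted p below 0.05. Arf6, the plasma membrane Arf, had 1062 and 1015 in migrasome and 1441 and 1357 in cytosol (difference -0.43, limma adjusted p = 0.12). Of 13 exchange factors and activating proteins of Arf, only Cyth1 passed, at 31.1 and 23.7 in migrasome and 61.3 and 54.2 in cytosol (difference -1.06), a call that DESeq2 did not make. Among 20 tethers and coat-associated proteins, Tfg, which organises ER exit sites, was higher by 0.67 and Trappc9, a subunit of a tethering complex, by 0.97.

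Membrane genes outside the 17 receptors were mostly lower. Of 25 tested early secretory membrane genes, 17 were lower and 1 higher, against 17.7% and 8.68% of all tested genes, with a median of -0.91. Tgoln1, a trans-Golgi membrane protein, had 146 and 209 in migrasome and 790 and 759 in cytosol (difference -2.14). Bcap31, an ER membrane chaperone, had 105 and 158 in migrasome and 501 and 539 in cytosol (difference -2.01). Both lay in the range of the receptors. Rer1, a retrieval receptor of the Golgi, was lower with a difference of -0.73, and Cnih1, a cargo receptor, with one of -0.91. Tmed8, which is named with the Tmed family, was the one higher, at 362 and 673 in migrasome and 265 and 233 in cytosol (difference 0.99, limma adjusted p = 0.032). Its most hydrophobic window averaged 0.63, below the range of the 17 receptors. Ier3ip1, a small ER membrane protein, had 570 and 587 in migrasome and 535 and 548 in cytosol and did not pass (difference 0.095).

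Cargo receptors of later compartments were lower in all 5 tested genes, against 17.7% of all tested genes, with a median of -1.64. Tfrc, the transferrin receptor, had 634 and 828 in migrasome and 2486 and 3590 in cytosol (difference -2.04). M6pr and Igf2r, the mannose phosphate receptors, were also lower, with log2 differences of -1.49 and -1.64, as was Lrp1 (-1.43). Igf2r was chosen after its value was seen. These receptors enter the pathway by the ER as the early ones do and are carried by clathrin.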

How the data were processed

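RNA sequencing of purified migrasome and of cytosol (2 libraries each, grouped by the sample titles) was analysed from 1 deposited table. Its values are a normalised signal: the authors counted reads per gene and scaled each library by its own size factor, as the tools named in the submitters' processing notes (cutadapt, Trimmomatic, FastQC, STAR, HTSeq and DESeq, with the build GRCm38) and the values show. The sources used here do not give versions, gene annotation, strand setting or the treatment of reads with several matches. Every value (100%) was a whole multiple of what 1 read is worth, within 0.001, so read numbers were recovered. The floor for a gene without reads is the value of 3 reads, 4.24 and 3.95 in the migrasome and 2.33 and 2.06 in the cytosol libraries, which allows for counting error only because the reads carry no molecular identifiers. Replicates were checked for double deposition: over genes with 20 or more summed reads, chi-square per degree of freedom was 27.9 (migrasome pair) and 17.6 (cytosol pair), far above sampling noise.

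The test was limma 3.58.1 (eBayes with a trend, R 4.3.3) on log2(value + 1), a scale on which changes of low genes come out too small, for genes that reached 10 in 2 or more libraries, with Benjamini-Hochberg adjustment at 0.05. edgeR 4.0.16 and DESeq2 1.42.0 on the recovered reads, other scalings, filters, pseudocounts, a replicate block and each left-out library were alternatives. The fit was tested on simulated data with known changes before it was used. Hydropathy, C-terminal signals, transcript lengths and overlaps came from GENCODE M21 (GRCm38). Coding sequences were translated for this, since no protein table was used here, and 57 genes with an in-frame stop or a short frame were left out. All 43 members could be named. From the other lists the naming rule took the 4 most abundant tested genes and the 2 largest called differences in each direction, of which 1 is not reported here. The members and lists were chosen with earlier results of these data known, so the split between coats and receptors is not independent support for any pattern. Python 3.11.15 with matplotlib 3.10.9 drew the figures.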

Additional observations from a re-analysis of the deposited data

How the results depend on the processing

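Over the 13 alternative settings no coat gene was called lower and no receptor higher. The replicate numbers could not be shown to pair the libraries (correlation of same-numbered deviations 0.226 over 10860 genes); with the replicate number as a block, 1802 genes were higher and 2621 lower, with 9 coat genes higher and 17 receptors lower, and 10 other soluble genes were higher and 3 lower. Without a minimum value, 224 genes were higher and 1065 lower, with 4 coat genes higher, 2 other soluble genes higher and 0 lower, and 0 other membrane genes higher and 14 lower. Scaling to the same total gave 322 higher, 2 other soluble genes higher and 5 lower, 0 other membrane genes higher, a coat median of 0.20 and a receptor median of -1.94. Without a variance trend 483 genes were higher, 3 of them other soluble and 0 other membrane genes. Quantile normalization gave 10 other soluble genes higher, and a minimum mean of 50 and DESeq2 each gave 0 of these lower.

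Leaving out each library gave 231 to 2085 genes higher and 1147 to 2800 lower, 3 to 13 coat genes higher, 13 to 17 receptors lower, 0 to 15 other soluble genes higher and 0 to 2 lower, and 0 to 1 other membrane genes higher and 13 to 22 lower. Medians were 0.37 to 0.58 for coats, -1.76 to -1.42 for receptors and -2.34 to -1.80 for receptors minus coats (-2.15 in the main fit). Without the 21 members that overlap another gene, which was chosen after seeing the data, the receptor median was -1.39 and its distance from the coats -1.82. The cause of these shifts was not tested.

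Uncalled genes changed sign. With scaling to the same total these were Copz1 (-0.045), Sar1a (-0.017), Sar1b (-0.21) and Sec24c (-0.015), with quantile normalization Sar1a (-0.059), Sec16a (0.034), Sec24b (0.10) and Arf1 (-0.10), and with DESeq2 Sec16a (0.011). Leaving out each library gave -0.17 to 0.30 for Sar1b (negative without migrasome replicate 1), -0.11 to 0.075 for Sec16a (positive without cytosol replicate 2) and -0.18 to 0.70 for Sec24c (negative without cytosol replicate 2). Depth limits the lowest member most, Tmed4, with 40 and 70 reads in migrasome.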
